A study of Mus musculus with 29 samples.

Results

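The Bcl2 family of apoptosis regulators was examined in C2C12 cells through 10 genes: Bcl2, Bcl2l1, Bcl2l2 and Mcl1, which restrain cell death, and Bax, Bak1, Bcl2l11, Bad, Bid and Bbc3, which promote it. A gene was represented by the probe set annotated with its symbol alone, and where several existed by the brightest over the transfected arrays. This gave values for 9 of the 10 genes, each from 1 probe set, among 19938 genes in all. Bax was not analysed here. Gene expression was measured on 29 Affymetrix arrays, and the values are log2 RMA values, on which a difference of 1 is a doubling.

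C2C12 is an established mouse myoblast line that divides in serum-rich medium and fuses into myotubes after serum is withdrawn. All transfected cells were C2C12 at passage 27 that received 50 nM of an oligonucleotide with the HiPerFect reagent, and RNA was collected 36 h later. A mimic is a synthetic RNA that acts as the mature microRNA. In 7 groups it stood for Let-7b, miR-1, miR-145, miR-22, miR-29a, miR-34a or miR-365, with 3 arrays each, and in the control group it was the AllStar negative control. The labels describe the arrays of a group as repeats of the experiment, so the spread between them is that between repeats in 1 cell line. The control had 3 arrays plus a technical repeat of each, averaged to 3 values. Untransfected myoblasts and terminally differentiated myotubes, also C2C12 at passage 27, had 1 array each. The labels call these myoblasts proliferating and not fully confluent.

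The 4 guardians Bcl2, Bcl2l1 (Bcl-xL), Bcl2l2 (Bcl-w) and Mcl1 hold the effectors Bak and Bax and the BH3-only proteins in inactive complexes at the outer mitochondrial membrane. BH3-only proteins such as Bim (Bcl2l11), Bid, Puma (Bbc3) and Bad sense damage or loss of growth factors, and occupy the guardians or activate the effectors, which then oligomerise, permeabilise the membrane and release cytochrome c. In muscle cells these proteins are known to set survival during the exit from the cell cycle and fusion, and several of their mRNAs have been reported in other systems as targets of the microRNAs used here.

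A microRNA chooses its targets mainly through the seed, bases 2 to 8 from its 5′ end. The labels name the microRNA but not the arm of the hairpin. The mature strand usually taken as active is therefore shown for 5 of the mimics, from the RefSeq table (GRCm38.p6). By the labels, the transfected groups differ in the microRNA that the oligonucleotide stood for. Each strand is written 5′ to 3′ with the seed in capitals.
miR-34a-5p: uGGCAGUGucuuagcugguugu
miR-22-3p: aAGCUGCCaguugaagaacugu
miR-365-3p: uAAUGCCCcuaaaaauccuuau
miR-29a-3p: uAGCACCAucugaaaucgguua
let-7b-5p: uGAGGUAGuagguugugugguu
The 5 seeds are all distinct, so by these strands no pair of the 5 mimics shares a seed. The sequences of miR-1 and miR-145 are named only.

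Array medians lay between 7.24 and 7.39, and the precision is limited by how few arrays there are. Of 10 measured markers of fibroblasts or fat, endothelium, blood and bone, 8 had a median under that of all genes (7.84). Pdgfra (median 8.23, highest 9.82) and Cd68 (median 8.22, highest 8.9) had a median above it. The myoblast gene Myod1 was at 11.32 or more in every transfected array. These are whole cultures, in which fewer cells of a kind and less RNA per cell cannot be told apart. In the miR-145 group interferon response genes differed strongly between samples: the mean of 12 such genes lay 1.40, 1.08 and 4.56 above the control mean in samples 1, 2 and 3, against −0.20 to 0.41 in every sample of the other mimics. Under miR-145, 10 of these 12 genes passed as higher, where 3.85% of all genes did. Values without miR-145 sample 3 stand beside each family gene that passed under miR-145. Samples 1 and 2 also lay above every sample of the other mimics, so leaving out sample 3 does not remove this response. Its part in the family differences was not tested.

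Over the 7 mimics, 8 of the 9 measured genes differed from the control somewhere (limma's F test, adjusted p from 3.07e-09 for Bak1 to 0.0273 for Bbc3), where 49.4% of all genes did. The exception was Bad, with adjusted p = 0.782. Bak1 and Bcl2 had the widest range of group means, 1.34 and 1.33 on the log2 scale, and Bad the narrowest, 0.15. All comparisons with the control use the same 3 control values, so each mimic was also set against the mean of the other 6. That difference uses no control value, but its error comes from the same model of 24 values, controls included.

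**Figure D1:**
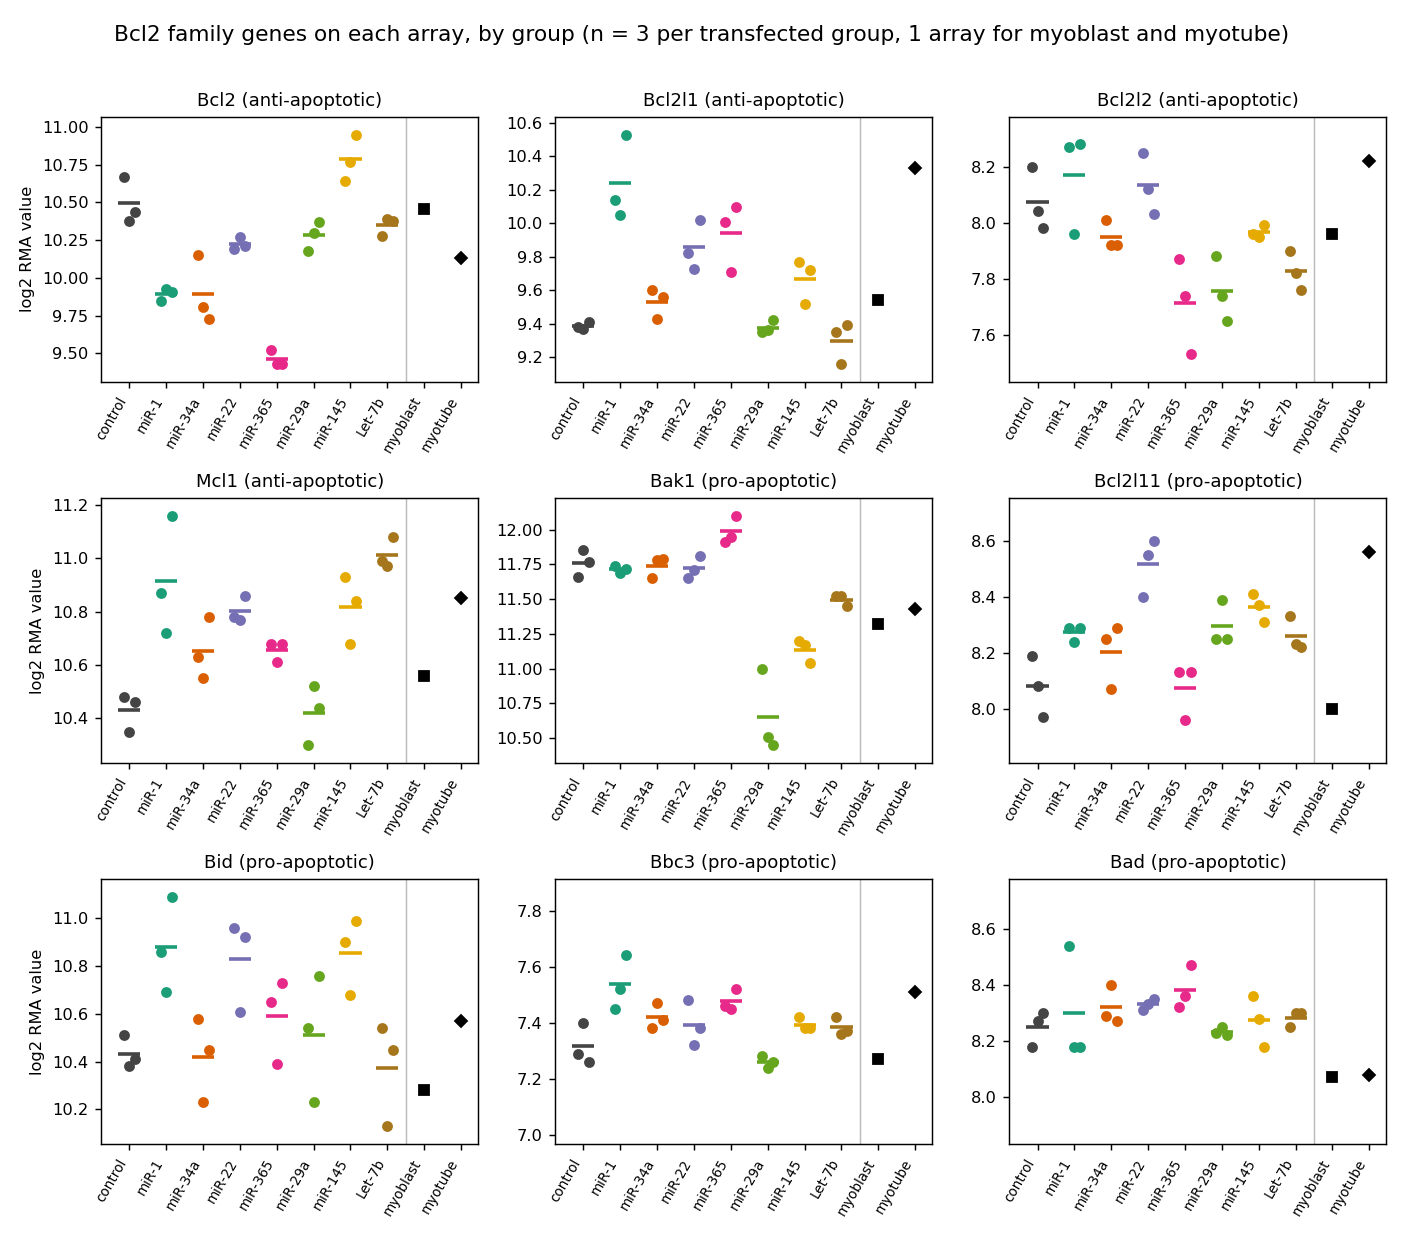
Log2 RMA value (vertical axis, scaled per gene) of each measured Bcl2 family gene by group. Circles are the 3 values of a transfected group, with the control values averaged over their technical repeats, and bars are group means. The square and the diamond are the single myoblast and myotube arrays. Bcl2 was lowest under miR-365 (9.43 to 9.52) and Bak1 under miR-29a (10.45 to 11.00).

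Under miR-1, 5 of the 9 genes passed against the control, where 23.7% of all genes did: Bcl2l1, Mcl1, Bid and Bbc3 were higher and Bcl2 was lower. Under miR-34a only Bcl2 passed, in the lower direction, at a background of 11.7%. Under miR-22 there were 3 (Bcl2l1, Mcl1 and Bcl2l11, all higher) at a background of 14.5%, and under miR-365 there were 3 (Bcl2l1 higher, Bcl2 and Bcl2l2 lower) at 20%. Under miR-29a 2 passed (Bcl2l2 and Bak1, both lower) at 10.3%, under miR-145 3 (Mcl1 and Bcl2l11 higher, Bak1 lower) at 6.85%, and under Let-7b 1 (Mcl1, higher) at 10.9%. With so few genes these counts do not set the family apart from other genes, and the results below are those of single genes. The median difference of the 9 genes lay between −0.06 under Let-7b and 0.28 under miR-145, and the median of all genes between −0.01 and 0.04.

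Several of these counts rest on single samples or on the model. The miR-1 count was 3 without control sample 3 or without miR-1 sample 3, the miR-29a count was 1 without any 1 control sample and without miR-29a sample 2 or 3, and the miR-145 count was 1 without control sample 2. For miR-365, miR-29a, miR-34a and miR-22 the same-numbered mimic and control samples deviated together in every pair (r over 0.1). With the number as a replicate block Mcl1 was higher under miR-34a too (0.22, adjusted p = 0.0449) and under miR-365 (0.23, adjusted p = 0.0279), while under miR-22 Bcl2 was lower (−0.27, adjusted p = 0.0479) and Bid higher (0.40, adjusted p = 0.000319), which made the counts 2 for miR-34a and 5 for miR-22. In that fit the share of all genes that passed was also larger, 17% for miR-34a, 20.2% for miR-22 and 25.7% for miR-365. With a sample left out that share was not counted.

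**Figure D2:**
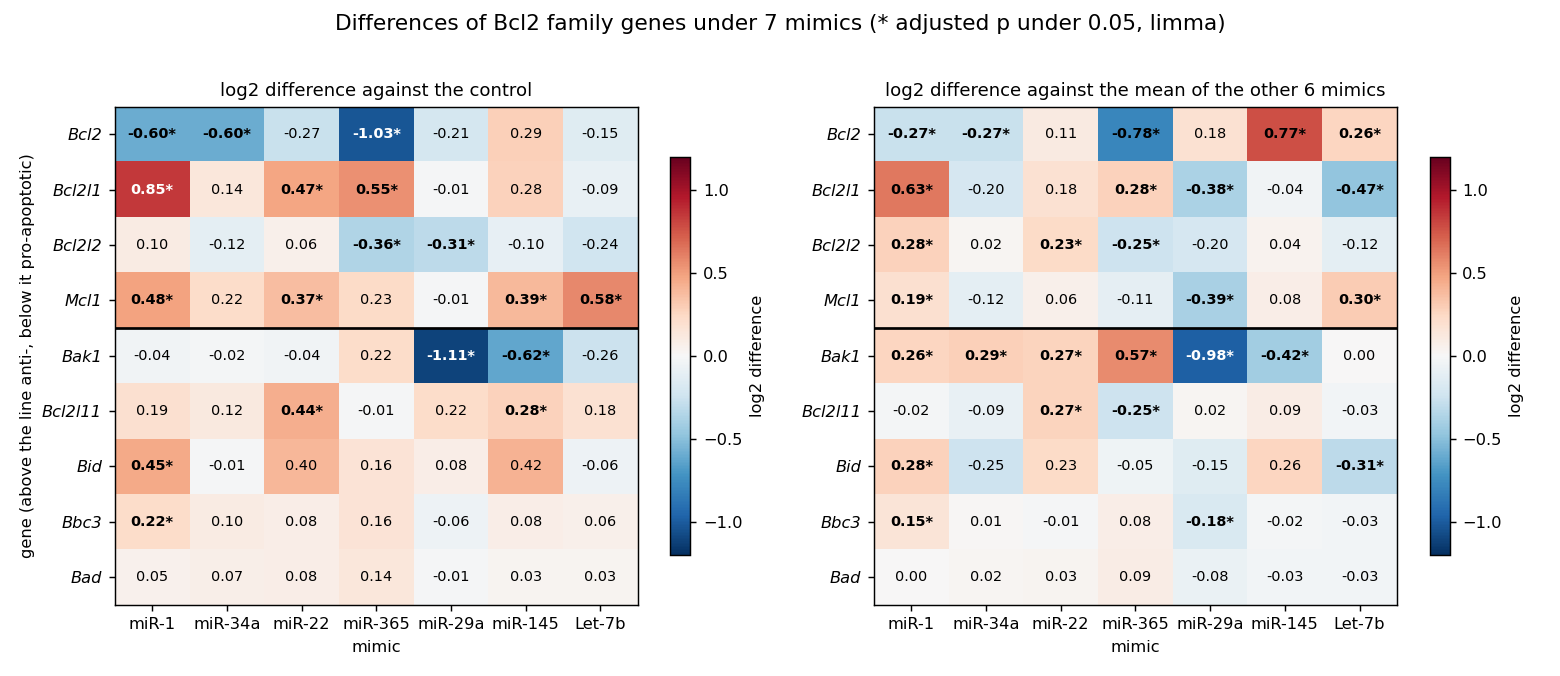
Log2 differences of the 9 genes (rows, guardians above the line) under the 7 mimics (columns), against the control on the left and against the mean of the other 6 mimics on the right. Red is higher, blue is lower, and an asterisk marks an adjusted p under 0.05 in limma. The largest decreases against the control were Bak1 under miR-29a (−1.11) and Bcl2 under miR-365 (−1.03), and the largest increase was Bcl2l1 under miR-1 (0.85).

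Bcl2, the founding guardian, which sits on mitochondria and the endoplasmic reticulum, was lowest under miR-365. Its values were 10.67, 10.38 and 10.44 in the control and 9.52, 9.43 and 9.43 under miR-365, with no overlap with any other group. The level was 48.8% of the control's (log2 −1.03 ± 0.10 SE, n = 3, limma adjusted p = 5.37e-08), and of all genes 105 had a lower difference under this mimic. Against the other 6 mimics the difference was −0.78 ± 0.07 (adjusted p = 3.38e-08).

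Bcl2 was also lower under miR-1 and miR-34a. In other systems it has been reported as a target of both, and of miR-365. Under miR-1 it was at 9.85, 9.93 and 9.91, a difference of −0.60 ± 0.10 (adjusted p = 5.48e-05). Under miR-34a it was at 10.15, 9.81 and 9.73, a difference of −0.60 ± 0.10 (adjusted p = 0.000167). All samples of both groups lay under the control samples, and sample 1 of miR-34a stood above the other two. Both groups remained above miR-365 in all samples, and both were lower than the mean of the other 6 mimics by the same −0.27 ± 0.07 (adjusted p = 0.00686 for miR-1 and 0.0147 for miR-34a). The second of these calls ended without miR-34a sample 2 (−0.22, adjusted p = 0.123) or sample 3 (−0.19, adjusted p = 0.223).

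In the remaining groups Bcl2 stayed nearer the control. It was at 10.19, 10.27 and 10.21 under miR-22, at 10.18, 10.30 and 10.37 under miR-29a, and at 10.28, 10.39 and 10.38 under Let-7b. None of these 3 passed (adjusted p from 0.065 for miR-22 to 0.477 for Let-7b). For miR-29a, reported elsewhere to target Bcl2, the difference was −0.21 with a 95% interval of −0.41 to −0.01.

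Under miR-145 Bcl2 was at 10.64, 10.77 and 10.95, the highest group mean of the 8. That was 0.77 ± 0.07 above the other 6 mimics (adjusted p = 2.46e-07) and 0.69 above them without miR-145 sample 3 (adjusted p = 1.27e-05). Against the control it was 0.29 ± 0.10 and did not pass (adjusted p = 0.0696), and the lowest miR-145 sample lay under the highest control sample. In the order of the 8 groups the neighbours from miR-145 through the control, Let-7b and miR-29a to miR-22 overlapped each with the next, as did miR-34a and miR-1.

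Bcl2l1, which encodes the guardian Bcl-xL and a shorter splice form of opposite action that a single probe set does not separate, was the family gene with the largest increase. The control samples lay close together at 9.38, 9.37 and 9.41. Under miR-1 the values were 10.14, 10.05 and 10.53, or 181% of the control's level (0.85 ± 0.11, adjusted p = 4.9e-06). Sample 3 stood highest, and without it the difference was 0.71, the lowest over all settings tried.

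Bcl2l1 also rose under miR-365 and miR-22. Under miR-365 it was at 10.01, 9.71 and 10.10 (0.55 ± 0.11, adjusted p = 0.000996), and under miR-22 at 9.82, 9.73 and 10.02 (0.47 ± 0.11, adjusted p = 0.00583). Without miR-22 sample 3 the last call ended (0.39, adjusted p = 0.0554). All samples of these groups lay above all control samples, and the ranges of miR-1, miR-365 and miR-22 overlapped each with the next.

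Under miR-145 and miR-34a Bcl2l1 lay above the control samples without passing, at 9.77, 9.52 and 9.72 (0.28, adjusted p = 0.154) and at 9.60, 9.43 and 9.56 (0.14, adjusted p = 0.587). The lowest groups were miR-29a, at 9.35, 9.36 and 9.42, and Let-7b, at 9.35, 9.16 and 9.39, which both overlapped the control. Let-7b is known elsewhere to target Bcl2l1, and here its difference from the control was −0.09 with a 95% interval of −0.32 to 0.15. Against the other 6 mimics, of which several had raised the gene, Bcl2l1 was lower under Let-7b (−0.47 ± 0.09, adjusted p = 0.000335) and under miR-29a (−0.38 ± 0.09, adjusted p = 0.00281).

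Bcl2l2, the guardian Bcl-w, varied less. The control was at 8.20, 8.04 and 7.98, miR-365 at 7.87, 7.74 and 7.53 and miR-29a at 7.88, 7.74 and 7.65, both without overlap with the control. The differences were −0.36 ± 0.10 (adjusted p = 0.00989) and −0.31 ± 0.10 (adjusted p = 0.0402). Control sample 1 was the highest of its group, and without it neither passed (−0.29, adjusted p = 0.0635, and −0.25, adjusted p = 0.185). The miR-365 call also ended without its sample 3 (−0.27, adjusted p = 0.092), and the miR-29a call without either of its samples 2 and 3 (−0.30, adjusted p = 0.12, and −0.26, adjusted p = 0.2) or without control sample 2 (adjusted p = 0.0821) or 3 (adjusted p = 0.0517). It also ended with each array centred on its median (adjusted p = 0.0926) or with all probe sets tested (adjusted p = 0.0664). In the other 5 groups the samples lay between 7.76 and 8.28.

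Mcl1, a guardian whose protein turns over within hours, was higher than the control in most groups. The control was at 10.48, 10.35 and 10.46, and Let-7b, the highest, at 10.99, 10.97 and 11.08 (0.58 ± 0.09, adjusted p = 0.000124). Let-7b also exceeded the other 6 mimics (0.30 ± 0.07, adjusted p = 0.00273). Mcl1 has been reported elsewhere as a target of Let-7b, and here it was higher. Let-7b and miR-1 overlapped, so their order is not settled by these samples.

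Mcl1 rose under 3 further mimics. It was at 10.87, 10.72 and 11.16 under miR-1 (0.48 ± 0.09, adjusted p = 0.000289) and at 10.78, 10.77 and 10.86 under miR-22 (0.37 ± 0.09, adjusted p = 0.00625). Under miR-145 it was at 10.93, 10.68 and 10.84 (0.39 ± 0.09, adjusted p = 0.00944; without miR-145 sample 3, 0.38 and adjusted p = 0.0413), and without control sample 2 that call ended (0.35, adjusted p = 0.0562). No sample of these groups reached down to the control range. Under miR-365, at 10.68, 10.61 and 10.68, and miR-34a, at 10.63, 10.55 and 10.78, all samples also exceeded the control samples, and the calls depended on the model. Neither passed in the main fit. Both passed with the replicate block given above and with the 6 control arrays as separate values. Mcl1 under miR-365 also passed with technical pairs as a random block and with only miR-365 and the control in the model.

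Under miR-29a, which is known in other cells to target Mcl1, the gene was at 10.30, 10.52 and 10.44, within and around the control range. The difference was −0.01 ± 0.09, with a 95% interval of −0.20 to 0.18, and its sign changed with the samples left out. Against the other 6 mimics Mcl1 was lower under miR-29a (−0.39 ± 0.07, adjusted p = 0.000296).

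Bak1 encodes Bak, the effector that resides in the outer mitochondrial membrane and forms the pore. Bak1 has been reported elsewhere as a target of miR-29a. Its control samples were at 11.66, 11.85 and 11.77. Under miR-29a the values were 11.00, 10.51 and 10.45, the lowest of all groups, with sample 1 above the other two and no overlap with any other group. The level was 46.4% of the control's (−1.11 ± 0.10, adjusted p = 1.02e-07), and 19 of all genes had a lower difference under this mimic. Over all settings tried the difference lay between −1.28 and −1.01. Against the other 6 mimics it was −0.98 ± 0.07 (adjusted p = 3.72e-09).

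Bak1 also fell under miR-145, to 11.20, 11.17 and 11.04, or 64.9% of the control's level (−0.62 ± 0.10, adjusted p = 0.000258). Without miR-145 sample 3, the sample with the highest interferon response genes, the difference was −0.58 (adjusted p = 0.00273). This group lay under every other group except miR-29a, and against the other 6 mimics the difference was −0.42 ± 0.07 (adjusted p = 0.000333; without miR-145 sample 3, −0.37 and adjusted p = 0.00882).

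Under Let-7b Bak1 was at 11.52, 11.52 and 11.45, below all control samples, but the difference of −0.26 ± 0.10 did not pass (adjusted p = 0.091). Under miR-1, miR-34a and miR-22 the samples lay between 11.65 and 11.81, overlapping the control range, with differences of −0.04, −0.02 and −0.04. The miR-365 samples, at 11.91, 11.95 and 12.10, were above all others. That difference did not pass against the control (0.22 ± 0.10, adjusted p = 0.12) and did against the other 6 mimics (0.57 ± 0.07, adjusted p = 2.82e-06).

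Bak1 thus had more separated groups than any other family gene: of its 7 neighbouring pairs in the order of levels, 3 overlapped, against 5 for Bcl2 and Mcl1, 6 for Bcl2l1 and Bcl2l2, and all 7 for the other 4 genes. miR-365 combined the lowest Bcl2 with the highest Bak1 of the 8 groups, and miR-145 combined the highest Bcl2 with the next to lowest Bak1. miR-29a had low Bak1 with Bcl2 between 10.18 and 10.37.

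**Figure D3:**
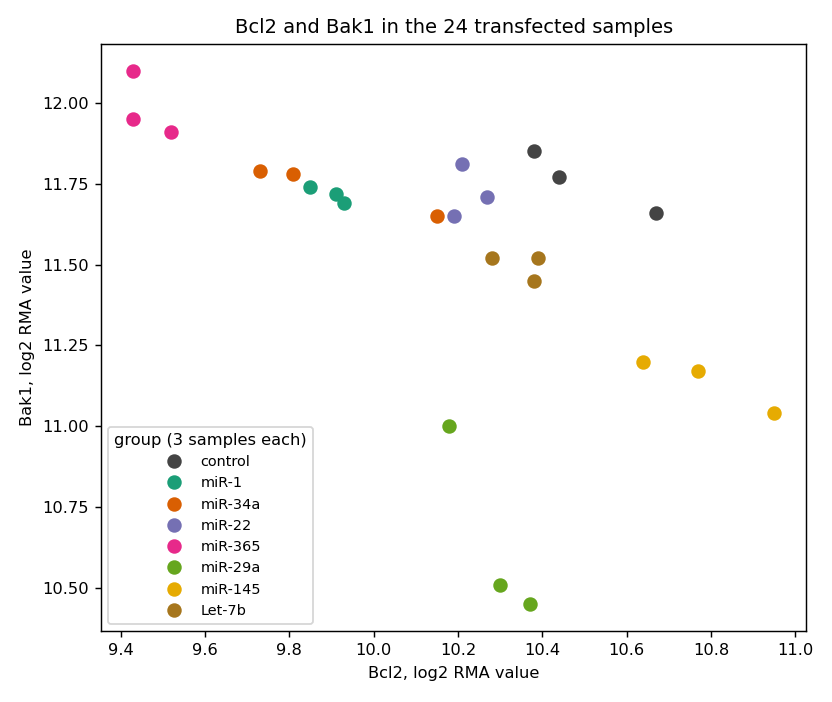
Bcl2 (horizontal axis) and Bak1 (vertical axis), both as log2 RMA values, in the 24 transfected samples coloured by group. The miR-365 samples form the upper left corner (Bcl2 at most 9.52, Bak1 at least 11.91), the miR-145 samples lie at the right, and the miR-29a samples lie lowest.

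Bcl2l11 encodes Bim, a BH3-only protein that binds all guardians and is induced when growth factors are withdrawn. It was at 8.19, 8.08 and 7.97 in the control and at 8.40, 8.55 and 8.60 under miR-22, with no overlap (0.44 ± 0.08, adjusted p = 0.00053). The increase under miR-22 also exceeded the other 6 mimics (0.27 ± 0.06, adjusted p = 0.00281), a call that ended without miR-22 sample 3 (0.23, adjusted p = 0.0548).

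Under miR-145 Bcl2l11 was at 8.41, 8.37 and 8.31 (0.28 ± 0.08, adjusted p = 0.0338), above all control samples. This call ended without any 1 of the 3 miR-145 samples (0.31 and adjusted p = 0.0547 without sample 3, 0.26 and 0.094 without sample 1, 0.28 and 0.0729 without sample 2). It ended too without control sample 2 (0.28, adjusted p = 0.0961) or 3 (0.23, adjusted p = 0.188), with each array centred on its median (0.27, adjusted p = 0.0937) and with only miR-145 and the control in the model (adjusted p = 0.141). Under miR-365 Bcl2l11 lay at 8.13, 7.96 and 8.13, on the control's level (−0.01, 95% interval −0.17 to 0.16). Under miR-29a, for which Bim has been named as a target, it was at 8.25, 8.39 and 8.25 (0.22, adjusted p = 0.0959).

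Bid, which death receptor caspases cleave to an active form, was at 10.51, 10.38 and 10.41 in the control. Under miR-1 it was at 10.86, 10.69 and 11.09, above all control samples (0.45 ± 0.14, adjusted p = 0.0201). Without miR-1 sample 3 the difference was 0.34 (adjusted p = 0.141), and without control sample 2 or 3 it did not pass either (adjusted p = 0.0707 and 0.0602).

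Bid lay at similar levels under miR-22, at 10.96, 10.61 and 10.92 (0.40 ± 0.14, adjusted p = 0.0582), and under miR-145, at 10.90, 10.68 and 10.99 (0.42 ± 0.14, adjusted p = 0.0692). With the replicate block Bid passed in limma under miR-22, as given above, under miR-145 (adjusted p = 0.000386) and under miR-1 (adjusted p = 4.28e-05). For miR-145 and miR-1 not every same-numbered pair deviated together with the control (lowest r −0.035 and −0.036). In these 3 groups sample 2 was the lowest, as it was in each of the other groups. The standard error of 0.14 was the largest of the 9 genes, and with the replicate block it was 0.07. In the remaining mimics the samples ran from 10.13 to 10.76.

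Bbc3 encodes Puma, the BH3-only protein that p53 induces. It was the dimmest of the 9 probe sets, with a mean of 7.40 against 6.67 for the median of probe sets without a listed gene. The control was at 7.29, 7.40 and 7.26 and miR-1 at 7.45, 7.52 and 7.64, above all control samples (0.22 ± 0.07, adjusted p = 0.0158). Without miR-1 sample 3 the difference was 0.17 (adjusted p = 0.115), and without control sample 1 or 3 it did not pass (adjusted p = 0.0546 and 0.0814), nor in a model of these 6 samples alone (adjusted p = 0.138). Under miR-29a, which has been reported to target Bbc3, the values were 7.28, 7.24 and 7.26 (−0.06, 95% interval −0.19 to 0.08).

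Bad, a BH3-only protein kept inactive by phosphorylation and 14-3-3 proteins, passed against the control in 0 of 7 mimics in limma, and in 0 at an unadjusted p under 0.05. The control was at 8.18, 8.27 and 8.30 and all mimic samples between 8.18 and 8.54. The differences ran from −0.01 under miR-29a (95% interval −0.19 to 0.16) to 0.14 under miR-365 (95% interval −0.04 to 0.31).

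Against the mean of the other 6 mimics the counts of genes that passed were 7 for miR-1 (28.7% of all genes), 2 for miR-34a (14.1%), 3 for miR-22 (15.8%), 5 for miR-365 (27%), 4 for miR-29a (17.1%), 2 for miR-145 (18.8%) and 4 for Let-7b (18.5%). Under miR-1 these were the increases of Bcl2l1, Bcl2l2, Mcl1, Bak1, Bid and Bbc3 and the decrease of Bcl2. All 4 under miR-29a were decreases: Bcl2l1, Mcl1, Bak1 and Bbc3. The miR-1 count was 3 without miR-1 sample 3 and 4 without sample 1, where Bcl2, Bcl2l1 and Bak1 kept their calls in both cases. It was 5 without any 1 control sample, through the error of the model, with the calls of Mcl1 and Bid lost. Without sample 3 the miR-22 count was 1 and the miR-365 count 3, and without sample 2 or 3 the Let-7b count was 2. Without sample 2 or 3 the miR-34a count was 0 in limma (2 and 4 at an unadjusted p under 0.05). The share of all genes was not counted with samples left out. With the replicate block the counts were 4 for miR-34a (20.1% of all genes) and 5 for miR-22 (21.9%).

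Untransfected myoblasts and myotubes could be compared only as 2 single arrays, so no test was made. Bcl2l1 had the largest difference, 9.54 in the myoblast array and 10.33 in the myotube array, or 1.73-fold. It was the only one of the 9 genes past 1.5-fold, where 13.5% of all genes were. The myotube value lay within the miR-1 range of 10.05 to 10.53 and above all 6 control arrays, which ran from 9.35 to 9.45.

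Bcl2l11 had the next largest difference, 8.0 in the myoblast and 8.56 in the myotube array, or 1.47-fold, and with each array centred on its median it also passed 1.5-fold. Mcl1 was at 10.56 and 10.85, Bid at 10.28 and 10.57, Bcl2l2 at 7.96 and 8.22 and Bbc3 at 7.27 and 7.51. Bak1, at 11.32 and 11.43, and Bad, at 8.07 and 8.08, differed little. Both values of each gene lay under all control arrays (11.65 to 11.86 for Bak1 and 8.16 to 8.3 for Bad). Bcl2, at 10.46 and 10.13, was the only gene lower in the myotube array. The median difference of the 9 genes was 0.26 and that of all genes −0.02.

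The myoblast array does not show the lowest levels of muscle genes. All 6 markers of differentiated muscle were higher in it than in every transfected array, with Myh3, an embryonic myosin, at 12.08 against at most 10.99, and Myog at 11.56 against at most 11.24. In the myotube array they were higher still, with Myh3 at 13.09. The proliferation genes Mki67 and Mcm3 were at 11.09 and 10.28 in the myoblast array, within the range of the transfected arrays. In the myotube array they were at 9.56 and 8.64, below that range. How far differentiation of some myoblasts had gone, and its part in the Bcl2 family differences, was not tested.

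**Figure D4:**
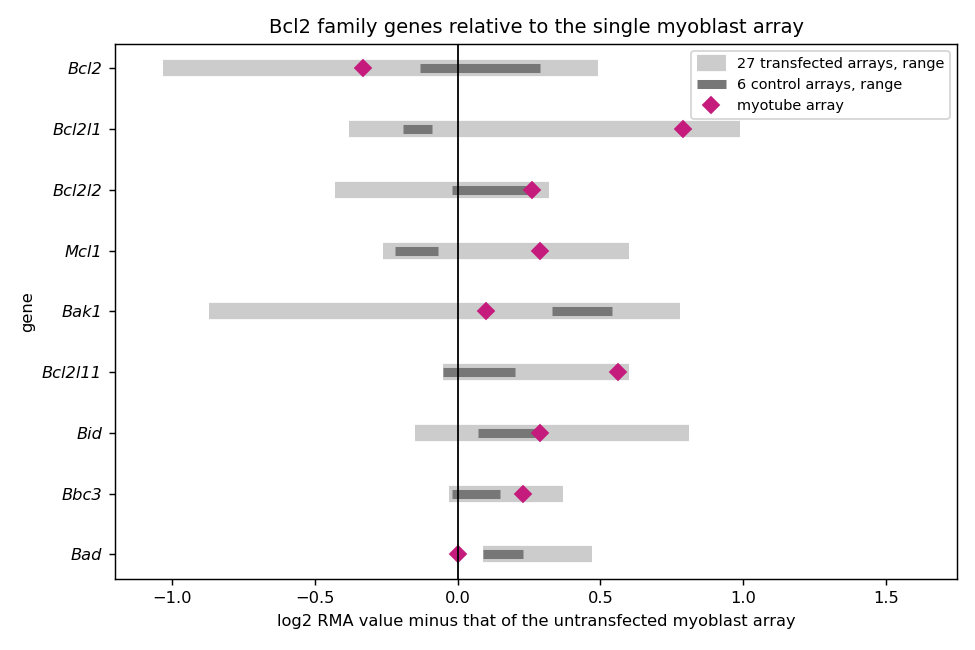
Log2 RMA values relative to the single untransfected myoblast array (0 on the horizontal axis) for the 9 genes. Diamonds are the myotube array, dark bars the range of the 6 control arrays and light bars the range of all 27 transfected arrays. Bcl2l1 and Bcl2l11 had the largest differences between the myotube and the myoblast array, 0.79 and 0.56, and both lay within the light bars.

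Further genes of the pathway were described from lists. Beside each count stands the share of all genes that passed in that direction. Of 5 measured relatives with several BH domains, 1 was lower under miR-34a (6.06% of all genes): Bcl2l13, a mitochondrial relative also known as a mitophagy receptor, at −0.73 ± 0.06 (adjusted p = 1.84e-08). Bcl2l13 was lower under miR-365 (−0.27 ± 0.06, adjusted p = 0.00195) and miR-145 (−0.25 ± 0.06, adjusted p = 0.00947) as well, and Bok, a Bak-like effector, was higher under miR-145 (0.51 ± 0.13, adjusted p = 0.0201). Without miR-145 sample 3 neither miR-145 call held (Bcl2l13 −0.21, adjusted p = 0.0675, and Bok 0.44, adjusted p = 0.118). Of 8 other BH3-only and related genes, 3 were higher and 1 lower under miR-1 (all genes 13.2% and 10.5%), and 3 were lower under miR-365 (8.33%). Bnip3, a BH3-containing mitophagy receptor induced by low oxygen, was higher under miR-1 (1.04 ± 0.12, adjusted p = 1.29e-06) and miR-34a (1.03 ± 0.12, adjusted p = 4.37e-06) and lower under miR-365 (−0.56 ± 0.12, adjusted p = 0.00196). The autophagy gene Becn1 was higher under miR-22 (0.29 ± 0.06, adjusted p = 0.00164) and miR-1 (0.17 ± 0.06, adjusted p = 0.0361), and Bik was lower under miR-1 (−0.23 ± 0.08, adjusted p = 0.0347) and miR-365 (−0.22 ± 0.08, adjusted p = 0.0494).

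Downstream of the mitochondrion, 12 of 14 listed apoptosome, caspase and released proteins were measured. Under miR-365 3 were higher and 4 lower (all genes 11.7% and 8.33%), under miR-22 3 and 3 (8.82% and 5.67%), and under miR-1 2 and 2 (13.2% and 10.5%). Casp2, an initiator caspase that can cleave Bid, was lower under 5 mimics, from −0.46 ± 0.11 under miR-22 (adjusted p = 0.00492) to −1.03 ± 0.11 under miR-34a (adjusted p = 6.88e-07). Apaf1, the scaffold of the apoptosome, was higher under miR-22 (0.58 ± 0.09, adjusted p = 7.54e-05), miR-1 (0.52 ± 0.09, adjusted p = 8.91e-05), miR-145 (0.50 ± 0.09, adjusted p = 0.000814; without sample 3, 0.45 and adjusted p = 0.00806) and Let-7b (0.37 ± 0.09, adjusted p = 0.00651). Casp6, an effector caspase, was higher under miR-365 (0.75 ± 0.07, adjusted p = 6.26e-08), miR-22 (0.25 ± 0.07, adjusted p = 0.018) and Let-7b (0.24 ± 0.07, adjusted p = 0.029).

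Of 5 inhibitor of apoptosis genes, 3 were lower under miR-1 (10.5% of all genes), and 2 were lower and 1 higher under miR-365 (8.33% and 11.7%). Xiap, which blocks caspases directly, was lower under miR-1 (−0.73 ± 0.11, adjusted p = 1.87e-05) and miR-365 (−0.65 ± 0.11, adjusted p = 0.000114), and Birc5, also a mitosis gene, under Let-7b (−1.13 ± 0.15, adjusted p = 2.03e-05) and miR-1 (−0.88 ± 0.15, adjusted p = 0.000112). Birc5 was lower under miR-22 (−0.57 ± 0.15, adjusted p = 0.0127) and miR-365 (−0.52 ± 0.15, adjusted p = 0.0158) too, while Birc2 was higher under miR-365 (0.40 ± 0.13, adjusted p = 0.0311). Of 7 death receptor genes, 2 were higher and 1 lower under miR-1 (all genes 13.2% and 10.5%). The receptor gene Tnfrsf10b was higher under miR-1 (0.84 ± 0.12, adjusted p = 1.75e-05) and miR-365 (0.80 ± 0.12, adjusted p = 5.17e-05) and lower under miR-34a (−0.41 ± 0.12, adjusted p = 0.0296). Fas was higher under miR-1 (0.51 ± 0.16, adjusted p = 0.0218) and miR-29a (0.55 ± 0.16, adjusted p = 0.029), and the adaptor gene Fadd was lower under miR-1 (−0.33 ± 0.10, adjusted p = 0.0185). Of the 3 porins, 1 was lower under Let-7b (5.46% of all genes): Vdac1 (−0.39 ± 0.05, adjusted p = 9.54e-06).

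Genes that act on the family's proteins moved unevenly. Of 4 genes for turnover of the Mcl1 protein, 2 ubiquitin ligase genes were higher under miR-365 (11.7% of all genes): Btrc (0.46 ± 0.07, adjusted p = 7.48e-05) and Fbxw7 (0.40 ± 0.10, adjusted p = 0.00468). Fbxw7 was lower under miR-34a (−0.31 ± 0.10, adjusted p = 0.0403). Usp9x, which removes ubiquitin from Mcl1, was higher under Let-7b (0.21 ± 0.07, adjusted p = 0.0386) and lower under miR-145 (−0.24 ± 0.07, adjusted p = 0.0307; without sample 3, −0.23 and adjusted p = 0.11). Of 7 genes for 14-3-3 proteins, which sequester Bad, 4 were lower and 1 higher under miR-1 (all genes 10.5% and 13.2%), 4 were lower under miR-22 (5.67%), and 1 was lower and 2 higher under miR-365 (8.33% and 11.7%). Ywhah was lower under 4 mimics, most under miR-365 (−1.27 ± 0.08, adjusted p = 2.72e-10), Ywhag under miR-22 (−0.51 ± 0.06, adjusted p = 3.82e-06) and miR-34a (−0.38 ± 0.06, adjusted p = 0.000163), and Ywhaz under miR-1 (−0.59 ± 0.04, adjusted p = 2.65e-09). Ywhag was higher under miR-1 (0.36 ± 0.06, adjusted p = 0.000108) and miR-365 (0.24 ± 0.06, adjusted p = 0.0055).

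Of 5 measured transcription factors of BH3-only genes, 2 each were higher under miR-1 (13.2% of all genes), miR-34a (5.62%), miR-22 (8.82%) and miR-365 (11.7%), and 1 each was lower under miR-1 (10.5%) and miR-365 (8.33%). Ddit3, the stress factor CHOP known to act on Bcl2l11, was higher under 4 mimics, with the largest differences under Let-7b (0.87 ± 0.14, adjusted p = 0.000184) and miR-22 (0.71 ± 0.14, adjusted p = 0.000983). Foxo1 was higher under 3 mimics, most under miR-34a (0.39 ± 0.07, adjusted p = 0.000346), and Foxo3 under 3, most under miR-1 (0.37 ± 0.09, adjusted p = 0.00403).

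A set of p53 response genes that holds no family member was set beside Bcl2l1, Bid and Bbc3. Bcl2l1 passed under miR-1, miR-365 and miR-22, but Bid and Bbc3 passed under miR-1 only in limma without the replicate block. There Bbc3 differed by 0.08 under miR-22 (adjusted p = 0.524) and by 0.16 under miR-365 (adjusted p = 0.104). Bid differed by 0.40 (adjusted p = 0.0582) and 0.16 (adjusted p = 0.563). Of 13 measured, 10 were higher under miR-1 (13.2% of all genes), 9 under miR-22 (8.82%), 9 under miR-365 (11.7%), 4 under miR-34a (5.62%) and 2 under each of miR-29a (5.54%), miR-145 (3.85%) and Let-7b (5.46%). 1 gene of the set was lower under each of miR-34a (6.06% of all genes), miR-22 (5.67%), miR-29a (4.78%), miR-145 (3%) and Let-7b (5.46%). Among them was Phlda3 under Let-7b (−0.22 ± 0.06, adjusted p = 0.0195). The mean of the 13 genes over the control mean was 0.51, 0.44 and 0.79 in the miR-1 samples, 0.61, 0.46 and 0.73 under miR-365 and 0.41, 0.33 and 0.49 under miR-22, and at most 0.16 in any other sample. Sample 3 was the highest of each of the 3 groups, as it was for Bcl2l1. For Bid and Bbc3 this held under miR-1 and miR-365 only. Under miR-22 sample 1 was their highest (10.96 for Bid and 7.48 for Bbc3). Btg2, a p53 target that slows proliferation, was higher under 5 mimics, most under miR-22 (1.02 ± 0.12, adjusted p = 3.59e-06). Its call under miR-145 (0.47 ± 0.12, adjusted p = 0.0188) ended without miR-145 sample 3 (0.45, adjusted p = 0.0725). Trp53inp1 was higher under 6 mimics, most under miR-29a (1.26 ± 0.12, adjusted p = 1.89e-07), where Bbc3 did not pass. The part of this response in the family differences was not tested.

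For each gene that passed the F test, the other genes with the closest pattern were found by Pearson's r over the 24 transfected values, which share arrays and groups, so that r is a description. For Bcl2 they were Meis1 (0.913), Tmx1 (0.907) and Kat2b (0.884). For Bak1 they were Arf5 (0.927), Emc3 (0.925) and Ing4 (0.919). For Bcl2l1 they were Grasp (0.920), Cog6 (0.919) and Ghdc (0.914), and for Mcl1 Hspa5 (0.907), the chaperone of the endoplasmic reticulum, Csgalnact2 (0.870) and Osbpl2 (0.842). For Bcl2l2 they were Vps26b (0.878), Mark2 (0.860) and Sfxn3 (0.842), and for Bcl2l11 Gm2a (0.801), Omd (0.792) and Ly6f (0.783). For Bid they were Qtrt1 (0.874), Vps33a (0.871) and the p53 response gene Aen (0.827), and for Bbc3 Mlx (0.867), Wdr26 (0.833) and Eps8l2 (0.825). Within the family the closest pairs were Bcl2l1 with Bid and Bcl2l1 with Bbc3, both at 0.75, and the most opposed pair was Bcl2 with Bak1, at −0.56.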

How the data were processed

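The deposited values are log2 expression values of 29 arrays, made with RMA in Affymetrix Expression Console 1.1 per the submitters' processing notes. Filters and a genome build are not given in the sources used here. RMA equalises the distribution of the arrays, so a shift of total RNA is not visible, and it compresses differences of dim probe sets. Of 35556 probe sets 21789 carried 1 symbol. The brightest of a gene over the 27 transfected arrays was used, which left 19938 genes, without a filter.

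Control arrays were averaged with their same-numbered technical repeats (r = 0.996). A linear model with group as its only term was fitted to 24 values in limma 3.58.1 (R 4.3.3, eBayes with trend), with Benjamini-Hochberg adjustment over all genes within a comparison, threshold 0.05, 2-sided, and was tested on simulated data. Errors are its standard errors, and "passed", "rose" and "fell" follow that threshold. Same-numbered mimic and control samples deviated together in 18 of 21 pairs (r over 0.1), and in all 3 pairs for miR-365, miR-29a, miR-34a and miR-22.

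All 10 family genes are named, up to 3 genes per list that passed under the most mimics, and the 3 closest genes by Pearson's r. Members and lists were chosen with earlier results of these data known.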

Additional observations from a re-analysis of the deposited data

How the results depend on the processing

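Of the 18 differences from the control that passed, 11 passed in every setting tried: Bcl2 under miR-1, miR-34a and miR-365, Bcl2l1 under miR-1 and miR-365, Mcl1 under miR-1, miR-22 and Let-7b, Bcl2l11 under miR-22, and Bak1 under miR-29a and miR-145. Of 27 against the other 6 mimics, 12 did. With the 6 control arrays as separate values, which treats technical repeats as independent, the counts against the control were 2 for miR-34a, 5 for miR-22, 6 for miR-365, 6 for miR-145 and 3 for Let-7b, where 16.5%, 20.1%, 25.4%, 12.7% and 16% of all genes passed. With technical pairs as a random block they were 5 for miR-22, 5 for miR-145 and 2 for Let-7b (16.5%, 8.88% and 12.9% of all genes), and without the lowest 40% of genes 5 for miR-22 and 5 for miR-145 (26.2% and 13.4%). With only the mimic and the control in the model they were 5 for miR-365 and 2 for Let-7b, where the share of all genes was not counted. With each array centred on its median the miR-29a count was 1 (8.46% of all genes). It was also 1 with all probe sets tested, where that share was not counted. The number as a replicate block gave 2 for miR-34a, 5 for miR-22, 6 for miR-145 and 2 for Let-7b (17%, 20.2%, 12.3% and 16.5% of all genes), and against the other mimics 4 for miR-34a and 5 for miR-22. For miR-145, miR-1 and Let-7b the lowest r of a same-numbered pair with the control was −0.035, −0.036 and 0.082. With the number as a block in limma, Bid under miR-145 had an adjusted p of 0.000386, Bcl2l1 0.0213 and Bcl2 0.0461. Bcl2l2 under Let-7b had 0.0395. Leaving out 1 sample at a time gave, against the control, 3 to 5 for miR-1, 1 for miR-34a, 2 to 4 for miR-22, 2 to 3 for miR-365, 1 to 2 for miR-29a, 1 to 4 for miR-145 and 1 for Let-7b. Against the other mimics it gave 3 to 6 for miR-1, 0 to 2 for miR-34a, 1 to 3 for miR-22, 3 to 5 for miR-365, 3 to 5 for miR-29a, 2 for miR-145 and 2 to 4 for Let-7b. The share of all genes was not counted with a sample left out. The Mcl1 difference under miR-29a, −0.01, ran from −0.06 to 0.05 over the samples left out, with the sign changed to 0.02 without control sample 1, 0.01 without control sample 3 and 0.05 without miR-29a sample 1. With each array centred on its median 2 genes exceeded 1.5-fold between myotube and myoblast. The cause of these changes was not tested.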
